A study of Mus musculus with 12 samples.

Results

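Genes for the enzymes and membrane proteins of the lysosome were followed across mouse macrophages and osteoclasts, each with and without lipopolysaccharide (LPS, a component of the outer membrane of Gram-negative bacteria). The set was a list of 37 gene symbols with a minimum level, proposed with earlier results of these data known, and all 37 symbols were found in the deposited table of 54532 Ensembl genes. All 37 also passed that minimum (at least 1 FPKM, fragments per kilobase of exon, in at least 3 of the 12 libraries), as did 11335 genes in all. Macrophages came from the marrow of wild-type mice and were grown with CMG, which supplies the growth factor M-CSF. Osteoclasts, the multinucleated cells that resorb bone, were made from the same kind of macrophages by adding RANKL, given as 100 ng/mL in the sample source and as a range in the protocol. On day 5, treated cells of both kinds received LPS for 3 h at 100 ng/mL. The 4 groups (untreated macrophages, LPS-treated macrophages, untreated osteoclasts and LPS-treated osteoclasts) had 3 libraries each. No label says whether the 3 came from separate mice or cultures, so the p-values measure the spread between these libraries, which may be technical.

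Lysosomes break down lipids, sugars, proteins and glycosaminoglycans in an acid lumen bounded by a membrane of heavily glycosylated proteins. Most of the soluble enzymes receive a mannose 6-phosphate tag in the Golgi, which receptors use to carry them to the lysosome. Inherited loss of many of them causes a lysosomal storage disease, in which undegraded material accumulates. In macrophages these organelles digest what the cell takes up, while osteoclasts also fuse secretory lysosomes with the membrane that faces bone and release their content onto the matrix.

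The osteoclast libraries carried the osteoclast programme and the macrophage libraries did not. The 8 osteoclast markers (Ctsk, Acp5, Mmp9, Calcr, Ocstamp, Dcstamp, Atp6v0d2 and Oscar) summed to between 28980 and 31980 FPKM in the osteoclast libraries and to between 8.26 and 23.4 FPKM in the macrophage libraries. The 8 macrophage markers summed to between 1506 and 2507 FPKM in macrophages and to between 373 and 429 FPKM in osteoclasts. The macrophage libraries were also higher for the 7 neutrophil markers (5.41 to 15.99 FPKM against at most 1.88) and the 7 stromal and osteoblast markers (26.0 to 36.6 FPKM against at most 0.756). No neutrophil or stromal marker was at 0 in all libraries, and the part of such cells in the differences below was not tested. Of the other lists, endothelial markers reached at most 5.06 FPKM, and B cell, T and NK cell, dendritic cell, mast cell and erythroid markers at most 1.33 FPKM, with Cd3g, Cd8a, Ncr1, Mcpt4, Tpsb2 and Hbb-bs at 0 in every library. Between 15651770 and 20281456 reads per library were recovered from the values, and the members had between 158 (Ctns) and 71323 (Psap) reads in a library. The LPS-treated osteoclast libraries differed more among themselves than the others: the chi-square of read counts per degree of freedom was 7.94 to 12.6 between them and 2.62 to 6.36 within the other groups. Replicate 2 of that group had the lowest library weight, 0.493. The deposited values were scaled to the typical gene, and on the scale of a constant sum (TPM) the median over all genes tested went from 0.02 to -0.55 for LPS in macrophages, from 0.00 to -0.38 between the untreated cell types, from -0.02 to 0.12 between the treated ones, and from -0.01 to 0.51 for the difference between the LPS effects. Changes below are relative to the typical gene, and directions of called members that turn under another scaling are named beside them.

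Prosaposin dominated the set in every group. Psap, the precursor of the saposins that present sphingolipids to their enzymes, had 1101 ± 12.02 FPKM (mean ± SD, n = 3) in untreated macrophages and 1346 ± 13.5 FPKM in untreated osteoclasts, or 27.0% and 29.5% of the summed level of the 37 genes. Below it the order differed between the cell types. In untreated macrophages Lgmn (538 FPKM), Lamp1 (517 FPKM), Lipa (491 FPKM) and Hexa (313 FPKM) followed, and in untreated osteoclasts Hexa (852 FPKM), Npc2 (294 FPKM), Gusb (237 FPKM) and Cd63 (234 FPKM). Gusb (233, 239 and 240 FPKM) and Cd63 (234, 236 and 231 FPKM) overlapped in untreated osteoclasts. Lgmn lay above Lamp1 in each untreated macrophage library, though the ranges of both overlapped. The lowest members were Mcoln1 in untreated macrophages (5.48 FPKM), Ctns in LPS-treated macrophages (3.82 FPKM) and Galc in osteoclasts (3.77 FPKM without and 3.14 FPKM with LPS). This order also depends on the exon length used, which was 14879 bases for Galc. In untreated osteoclasts Galc had more reads (1078, 904 and 956) than Scarb2 (544, 477 and 530). The summed level of the set varied less than its make-up: 4079 ± 51.7 FPKM in untreated macrophages, 4361 ± 6.66 in LPS-treated macrophages, 4558 ± 56.2 in untreated osteoclasts and 4469 ± 140 in LPS-treated osteoclasts. As a share of all recovered reads the order was another: 1.66%, 1.17%, 1.59% and 1.502% in the same groups. Sphingolipid enzymes and activators made up 40.6% of the summed level in untreated macrophages and 58.5% in untreated osteoclasts. Glycosaminoglycan enzymes made up 5.32% and 12.1%, membrane proteins 17.9% and 9.21%, and the enzymes of peptides, thioesters and phosphates 16.1% and 4.96%.

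The promoters of many lysosomal genes are known to hold the E-box CACGTG, a site that the MiT/TFE transcription factors can bind, which is why 4 upstream sequences are shown for genes that the results below turn on. Each is the 250 bases before the RefSeq start site, 5′ to 3′ on the strand of the gene, on build GRCm38.p6, and capitals mark CACGTG. The first 3 hold it and the last does not. They lie at chr8:13158911-13159160 (plus strand, Lamp1), chr9:114400828-114401077 (plus strand, Glb1), chr11:119355511-119355760 (minus strand, Sgsh) and chr7:105554110-105554359 (plus strand, Smpd1).
Lamp1: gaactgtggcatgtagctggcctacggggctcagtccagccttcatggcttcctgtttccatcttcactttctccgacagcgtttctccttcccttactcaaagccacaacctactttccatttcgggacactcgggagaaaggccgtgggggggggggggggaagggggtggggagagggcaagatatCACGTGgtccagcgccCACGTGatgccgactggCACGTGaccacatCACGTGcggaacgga
Glb1: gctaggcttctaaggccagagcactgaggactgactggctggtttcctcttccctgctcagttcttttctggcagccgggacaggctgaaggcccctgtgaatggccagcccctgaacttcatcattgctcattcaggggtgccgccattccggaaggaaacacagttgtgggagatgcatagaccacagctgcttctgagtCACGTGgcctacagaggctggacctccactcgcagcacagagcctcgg
Sgsh: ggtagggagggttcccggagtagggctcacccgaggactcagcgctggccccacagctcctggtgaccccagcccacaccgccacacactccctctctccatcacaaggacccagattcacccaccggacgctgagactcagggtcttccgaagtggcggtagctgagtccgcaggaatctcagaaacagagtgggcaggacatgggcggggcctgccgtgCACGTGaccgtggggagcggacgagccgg
Smpd1: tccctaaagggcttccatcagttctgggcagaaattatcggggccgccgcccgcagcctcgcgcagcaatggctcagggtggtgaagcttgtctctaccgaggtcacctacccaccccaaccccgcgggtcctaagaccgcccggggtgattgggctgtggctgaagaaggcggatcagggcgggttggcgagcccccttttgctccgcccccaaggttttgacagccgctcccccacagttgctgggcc

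The Lamp1 promoter held 4 copies, with first bases at -61, -45, -28 and -15 from the start, the most of any member. Glb1 held 1 at -48 and Sgsh 1 at -29. RefSeq promoters (250 bases before to 50 after the start, 300 in all) were found for 33 of the 37 members, 4 of them with more than 1 promoter. CACGTG, which reads the same on both strands, was in 11 of their 37 promoters (29.7%), against 2349 of 32851 promoters in the table (7.15%) and 1095 of the 10722 promoters of tested genes (10.2%). With GT before it on either strand it was in 10 of 37 member promoters (27.0%), against 2.25% of all promoters and 4.36% of those of tested genes. Besides Lamp1, Glb1 and Sgsh, the 11 promoters with CACGTG were those of Mcoln1 (2 copies), Gla (2), the second listed promoter of Cln3 (2), Naglu, Arsa, Gaa, Sumf1 and the second listed promoter of Lgmn, and GT stood before it in all of them but Gaa. These genes moved in both directions between the cell types: Lamp1, Lgmn and Cln3 were lower in osteoclasts, Glb1, Sgsh, Mcoln1, Gla, Naglu, Arsa and Gaa higher (Sgsh not on the scale of a constant sum), and Sumf1 not called.

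Between the untreated cell types nearly every member differed, in both directions. Of the 37 genes, 22 were higher in osteoclasts and 13 lower at an adjusted p under 0.05 (limma, Benjamini-Hochberg over all genes tested), where 38.8% of all genes tested were called higher and 39.0% lower. Galns and Sumf1 did not pass, but both were called lower on the scale of a constant sum (-0.48 and -0.34) and Galns also after quantile normalization (-0.22). The median log2 difference, on the log2(FPKM + 1) scale used for every difference below, was 0.48 for the members and 0.00 for all genes tested. By size, 11 members were higher by at least 1 and 7 lower by at least 1, as were 13.4% and 14.3% of all genes tested. Arylsulfatase B and acid sphingomyelinase stood highest in osteoclasts, and legumain and the membrane proteins LIMP-2, LAMP-1 and LAMP-2 lowest. On the scale of a constant sum the counts were 18 higher and 17 lower, and after quantile normalization 20 and 15. Among all genes called, the share that was higher went from 49.9% to 29.9% on the scale of a constant sum. In libraries of mixed cells, fewer cells of a type and less RNA per cell cannot be told apart.

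**Figure D1:**
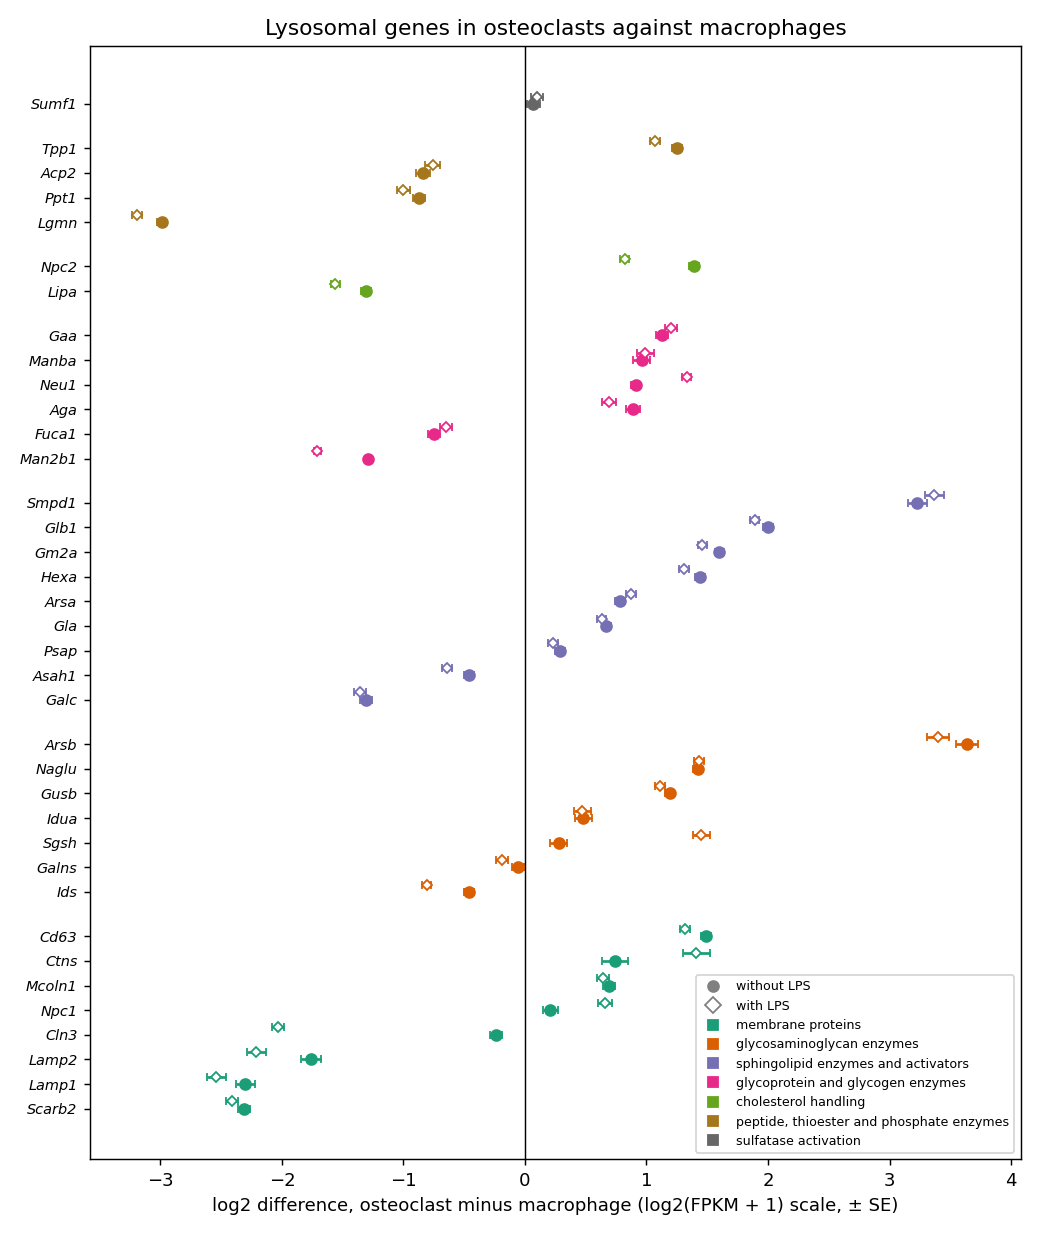
Log2 difference, osteoclast minus macrophage, on the log2(FPKM + 1) scale for all 37 genes, grouped by role, without LPS (filled circles) and with LPS (open diamonds), with bars for ± 1 SE of the fit. Arsb (3.64) and Smpd1 (3.23) lie farthest right and Lgmn (-2.99) farthest left without LPS, and each role group of more than 1 gene has members on both sides of 0.

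Of the 8 membrane proteins, 4 were higher and 4 lower in untreated osteoclasts (3 and 5 on the scale of a constant sum). All genes tested were also called about equally in both directions, 38.8% and 39.0% (2760 and 6457 genes on the scale of a constant sum). Lamp1 (ENSMUSG00000031447, chromosome 8, 13159161 to 13175338) encodes one of the most abundant glycoproteins of the lysosomal membrane. It measured 508, 532 and 510 FPKM in untreated macrophages and 108, 102 and 103 FPKM in untreated osteoclasts. Every osteoclast library lay below every macrophage library, a 4.95-fold lower mean and -2.30 in log2 difference (SE 0.08, adjusted p = 5.09e-11). Lamp2 (chromosome X, 38401357 to 38456454), its close relative, measured 52.0, 54.5 and 52.8 FPKM in macrophages and 15.96, 14.4 and 14.6 FPKM in osteoclasts. The groups again did not overlap, and the log2 difference was -1.76 (SE 0.08, adjusted p = 5.85e-10). Scarb2 (ENSMUSG00000029426, chromosome 5, 92441314 to 92506833), which encodes LIMP-2, the carrier of glucocerebrosidase to the lysosome, measured 27.1, 28.1 and 26.8 FPKM in macrophages and 4.69, 4.49 and 4.96 FPKM in osteoclasts. It was 5.80-fold lower in osteoclasts (log2 difference -2.31, SE 0.05, adjusted p = 2.30e-12). The fourth, Cln3, a membrane protein lost in juvenile Batten disease, differed by only -0.24 (SE 0.05, adjusted p = 5.70e-04). In the other direction Cd63, a tetraspanin of late endosomes and secretory lysosomes, had 82.3 ± 1.93 FPKM in macrophages and 234 ± 2.94 FPKM in osteoclasts, 1.49 in log2 difference (SE 0.04, adjusted p = 8.87e-12). The cystine exporter Ctns (0.74), the cation channel Mcoln1 (0.69) and the cholesterol exporter Npc1 (0.21) were also higher in osteoclasts, all in log2 difference. The last turned to -0.20 on the scale of a constant sum.

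Glycosaminoglycan enzymes strip sulfates and sugars from heparan, dermatan, chondroitin and keratan sulfate. Of the 7, 5 were higher in untreated osteoclasts and 1 lower (3 and 2 on the scale of a constant sum). The shares over all genes tested were 38.8% and 39.0% (2760 and 6457 genes on that scale). Arsb (ENSMUSG00000042082, chromosome 13, 93771630 to 93943016) encodes arylsulfatase B, which removes sulfate from dermatan and chondroitin sulfate. It measured 12.5, 11.9 and 11.3 FPKM in untreated macrophages and 152, 163 and 166 FPKM in untreated osteoclasts, with no overlap. The mean was 13.5-fold higher in osteoclasts, and the log2 difference of 3.64 (SE 0.09, adjusted p = 2.73e-12) was the largest of the set. Naglu, the alpha-N-acetylglucosaminidase of heparan sulfate breakdown, had 29.2 ± 0.772 FPKM in macrophages and 79.8 ± 2.91 FPKM in osteoclasts (log2 difference 1.42, SE 0.04, adjusted p = 3.01e-11). Gusb, beta-glucuronidase, was higher by 1.19 and Idua, alpha-L-iduronidase, by 0.48. Sgsh, the heparan N-sulfatase, was higher by 0.28 (SE 0.07, adjusted p = 0.00316) in the deposited scaling but had -0.11 on the scale of a constant sum, where Idua also lost its call. Ids, which removes sulfate from iduronate, was lower in osteoclasts, with a log2 difference of -0.46. Galns, a sulfatase of keratan and chondroitin sulfate, had 30.5 ± 0.350 FPKM in macrophages and 29.2 ± 1.27 FPKM in osteoclasts (log2 difference -0.06, SE 0.05, adjusted p = 0.305). Sumf1, which makes the catalytic formylglycine of every sulfatase, had 26.6 ± 0.881 FPKM and 27.9 ± 0.426 FPKM (0.07, SE 0.05, adjusted p = 0.258), which turned to -0.34 on the scale of a constant sum.

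Of the 9 sphingolipid enzymes and activators, 7 were called higher in untreated osteoclasts and 2 lower (6 and 3 on the scale of a constant sum). Beside them stand 38.8% higher and 39.0% lower among all genes tested (2760 and 6457 genes on that scale). Smpd1 (ENSMUSG00000037049, chromosome 7, 105554360 to 105558389) encodes acid sphingomyelinase, which cleaves sphingomyelin to ceramide. It measured 8.26, 7.76 and 6.23 FPKM in untreated macrophages and 75.0, 78.1 and 80.2 FPKM in untreated osteoclasts. The osteoclast mean was 10.5-fold higher, with no overlap (log2 difference 3.23, SE 0.08, adjusted p = 6.46e-12). Glb1 (ENSMUSG00000045594, chromosome 9, 114401076 to 114474898), the beta-galactosidase of GM1 ganglioside, measured 34.6, 32.1 and 33.4 FPKM in macrophages and 129, 139 and 140 FPKM in osteoclasts. It was 4.08-fold higher there (log2 difference 2.00, SE 0.04, adjusted p = 1.80e-12). The next steps of ganglioside breakdown moved the same way. Gm2a, the activator that lifts GM2 ganglioside to its enzyme, measured 32.4, 33.6 and 32.6 FPKM in macrophages and 98.4, 105 and 101 FPKM in osteoclasts (log2 difference 1.60, SE 0.04, adjusted p = 6.60e-12). Hexa, the alpha subunit of that enzyme, measured 310, 319 and 311 FPKM against 831, 864 and 862 FPKM (log2 difference 1.44, SE 0.04, adjusted p = 1.76e-11). Neither gene's groups overlapped. Arsa, the sulfatase of sulfatide, was higher by 0.78, Gla, alpha-galactosidase A, by 0.67 and Psap by 0.29. Psap turned to -0.13 on the scale of a constant sum and to -0.44 after quantile normalization. Galc, which breaks down galactosylceramide, went against the group, with 10.9, 10.7 and 10.9 FPKM in macrophages and 3.93, 3.60 and 3.78 FPKM in osteoclasts (log2 difference -1.31, SE 0.05, adjusted p = 7.54e-11). Asah1, acid ceramidase, which acts on the product of Smpd1, was also lower in osteoclasts (-0.46, SE 0.04, adjusted p = 1.58e-07).

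**Figure D2:**
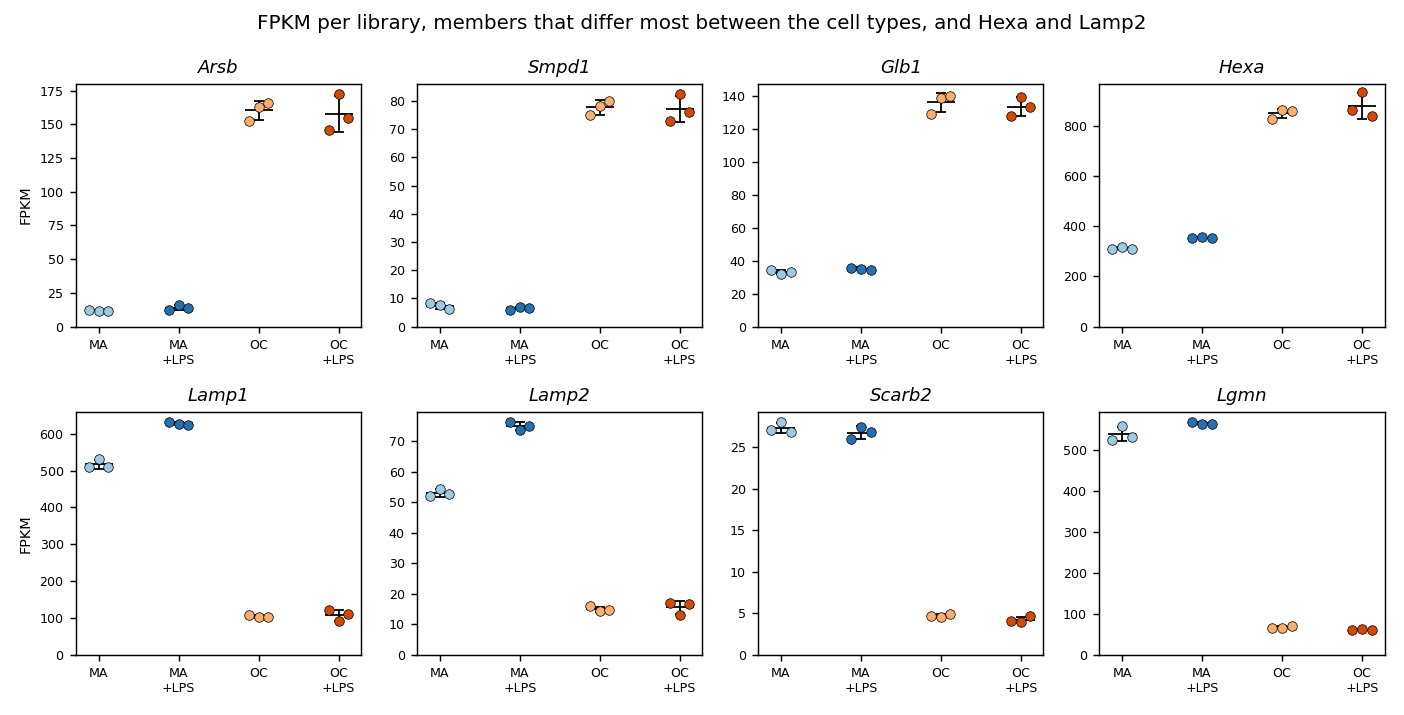
FPKM in each of the 12 libraries (points) for 8 genes, by group, with the group mean and ± 1 SD (lines); each panel starts at 0 and has its own scale. Arsb, Smpd1, Glb1 and Hexa are high in all 6 osteoclast libraries, and Lamp1, Lamp2, Scarb2 and Lgmn in all 6 macrophage libraries.

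Among the 6 enzymes of glycoproteins and glycogen, 4 were higher in untreated osteoclasts and 2 lower, beside 38.8% and 39.0% of all genes tested. Gaa, the acid alpha-glucosidase that degrades glycogen, was higher by 1.13, Manba, beta-mannosidase, by 0.96, the sialidase Neu1 by 0.91 and Aga, which cleaves the sugar from asparagine, by 0.89. Man2b1, the lysosomal alpha-mannosidase, measured 91.7, 91.2 and 91.0 FPKM in macrophages and 35.8, 37.9 and 36.5 FPKM in osteoclasts. It was 2.48-fold lower there (log2 difference -1.29, SE 0.03, adjusted p = 5.17e-12), so the 2 mannosidases moved in opposite directions. Fuca1, the fucosidase, was lower by a log2 difference of -0.75. The pair that frees and carries cholesterol also split. Lipa, the acid lipase that frees cholesterol from its esters, measured 472, 493 and 508 FPKM in macrophages and 199, 194 and 199 FPKM in osteoclasts (log2 difference -1.31, SE 0.04, adjusted p = 1.40e-11). Npc2, the soluble carrier that passes cholesterol to Npc1, measured 114, 115 and 107 FPKM in macrophages and 288, 303 and 292 FPKM in osteoclasts (log2 difference 1.39, SE 0.04, adjusted p = 1.87e-11).

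The last group, 4 enzymes of peptides, thioesters and phosphates, had 1 member higher and 3 lower in untreated osteoclasts. Among all genes tested 38.8% were higher and 39.0% lower. Lgmn (ENSMUSG00000021190, chromosome 12, 102394084 to 102439813) encodes legumain, which cuts after asparagine and processes cathepsins. It measured 524, 557 and 532 FPKM in untreated macrophages and 66.01, 65.1 and 69.9 FPKM in untreated osteoclasts, so it went from the second highest of the 37 genes to rank 15. The mean was 8.03-fold lower in osteoclasts, with no overlap (log2 difference -2.99, SE 0.04, adjusted p = 1.38e-14). Ppt1, which removes palmitate from proteins, differed by -0.87 and the acid phosphatase Acp2 by -0.84. Tpp1, a tripeptidyl peptidase, had 50.5 ± 1.03 FPKM in macrophages and 122 ± 2.29 FPKM in osteoclasts (log2 difference 1.25, SE 0.04, adjusted p = 5.23e-11).

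In LPS-treated cells, compared in 6 libraries that the untreated comparison did not use, 22 members were again higher in osteoclasts and 14 lower, where 40.9% of all genes tested were called higher and 43.0% lower. All 35 members called in both comparisons had the same direction in both. The log2 differences had a Pearson r of 0.96 over the 37 genes, given as a description. Neither figure was taken over all genes tested, so they do not set the members apart from other genes. Arsb measured 12.1, 15.9 and 14.1 FPKM in LPS-treated macrophages and 146, 172 and 155 FPKM in LPS-treated osteoclasts (log2 difference 3.40, SE 0.09, adjusted p = 3.31e-12). Smpd1 measured 6.01, 6.99 and 6.70 FPKM against 73.0, 82.4 and 76.3 FPKM (3.37, SE 0.08, adjusted p = 3.09e-12). For both, all LPS-treated osteoclast libraries lay far above all LPS-treated macrophage libraries. Glb1 measured 35.9, 35.2 and 34.5 FPKM against 128, 139 and 134 FPKM (1.89, SE 0.04, adjusted p = 2.01e-12). Gm2a measured 35.7, 34.2 and 35.4 FPKM against 95.8, 104 and 95.1 FPKM (1.46, SE 0.04, adjusted p = 1.00e-11). Neither overlapped. Lgmn measured 567, 564 and 564 FPKM against 60.9, 62.0 and 60.6 FPKM (-3.19, SE 0.04, adjusted p = 7.95e-15). Lamp1 measured 632, 627 and 625 FPKM against 121, 91.7 and 111 FPKM (-2.54, SE 0.08, adjusted p = 1.47e-11). All LPS-treated osteoclast libraries were below all macrophage ones for both. Scarb2 measured 26.0, 27.5 and 26.8 FPKM against 4.05, 3.96 and 4.63 FPKM (-2.41, SE 0.05, adjusted p = 1.17e-12). Lamp2 measured 76.5, 73.8 and 75.2 FPKM against 16.9, 13.1 and 16.6 FPKM (-2.21, SE 0.08, adjusted p = 5.15e-11). These were also without overlap. The members whose difference between the cell types was most unlike that without LPS were Cln3 (-2.03 with LPS and -0.24 without), Sgsh (1.45 and 0.28) and Ctns (1.41 and 0.74). Galns passed here with a log2 difference of -0.19 (adjusted p = 0.00546), which was -0.04 on the scale of a constant sum and 0.08 after quantile normalization, neither called. Sumf1 did not pass (0.10, adjusted p = 0.0978), but was called higher under both other scalings (0.26 and 0.34).

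LPS moved a few members of the set strongly in macrophages. At an adjusted p under 0.05, 11 of 37 rose and 8 fell, against 36.8% of all genes tested called higher and 33.1% lower, with a median of 0.02 for the members and for all genes tested. Cln3 rose 3.94-fold, and Sgsh and Ctns fell 2.98-fold and 2.48-fold. The other 34 members changed by less than 1 on the log2 scale, as did 9241 of all 11335 genes tested. Most of the rises depended on the scaling: on the scale of a constant sum 1 member was called higher and 34 lower, and after quantile normalization 1 and 32. The 1 was Cln3 in both. Among all genes called, the higher share was 52.6% in the deposited scaling, 18.5% on the scale of a constant sum and 37.01% after quantile normalization.

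Cln3 (ENSMUSG00000030720, chromosome 7, 126571207 to 126585817) measured 9.51, 9.92 and 10.0 FPKM in untreated macrophages and 39.8, 37.3 and 38.9 FPKM after LPS. All treated libraries stood above all untreated ones, a 3.94-fold rise (log2 difference 1.87, SE 0.05, adjusted p = 6.93e-12). Its exons share 442 of 5781 bases (7.65%) with Apobr on the opposite strand, which went from 25.0 ± 0.658 to 70.8 ± 0.950 FPKM in the same libraries and measured 45.9 and 46.2 FPKM in osteoclasts. Whether the counting used strand is not given in the sources used here, so reads of the shared bases cannot be assigned to either gene. Npc2 rose from the 114, 115 and 107 FPKM given above to 176, 176 and 179 FPKM (1.59-fold, log2 difference 0.66, SE 0.04, adjusted p = 2.60e-08), but had -0.26 after quantile normalization and was not called on the scale of a constant sum. Lamp2 went to 76.5, 73.8 and 75.2 FPKM (0.49, SE 0.08, adjusted p = 1.07e-04). Lamp1 went to the 632, 627 and 625 FPKM above (0.28, SE 0.08, adjusted p = 0.00601). Neither overlapped with its untreated libraries, and both had negative differences under the other scalings, -0.15 and -0.21 for Lamp2 and -0.37 and -0.71 for Lamp1. The remaining called rises, of 0.10 to 0.26 for Ids, Cd63, Man2b1, Arsb, Asah1, Hexa and Tpp1, also turned negative under both, and for Arsb the treated and untreated libraries overlapped. Those of Arsb (adjusted p = 0.0439) and Tpp1 (adjusted p = 0.0483) were the weakest.

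The 4 largest falls in macrophages kept their direction and call under both other scalings. Sgsh (ENSMUSG00000005043, chromosome 11, 119343425 to 119355536) measured 13.8, 13.5 and 12.3 FPKM without and 4.42, 4.75 and 4.13 FPKM with LPS. The treated level was 2.98-fold lower, with no overlap (log2 difference -1.39, SE 0.07, adjusted p = 4.27e-09). Ctns (ENSMUSG00000005949, chromosome 11, 73183596 to 73199042) measured 9.36, 10.1 and 9.01 FPKM without and 4.88, 3.28 and 3.32 FPKM with LPS, a 2.48-fold fall (-1.13, SE 0.11, adjusted p = 1.60e-06). Replicate 1 of the treated group was the highest of the 3 and still below all untreated libraries. Npc1 fell from 24.0, 24.8 and 23.8 FPKM to 17.5, 15.7 and 17.0 FPKM (-0.51, SE 0.06, adjusted p = 4.44e-06), while its partner Npc2 was called higher in the deposited scaling. Neu1 fell from 19.5, 18.9 and 19.3 FPKM to 14.8, 14.1 and 13.5 FPKM (-0.41, SE 0.04, adjusted p = 1.20e-06). Neither gene's treated libraries overlapped with the untreated ones. Smaller falls, of -0.13 to -0.16, were called for Lipa, Galc, Fuca1 and Naglu. In the order of levels Cln3 went from rank 31 to rank 14 of 37 in macrophages, while Ctns became the lowest.

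**Figure D3:**
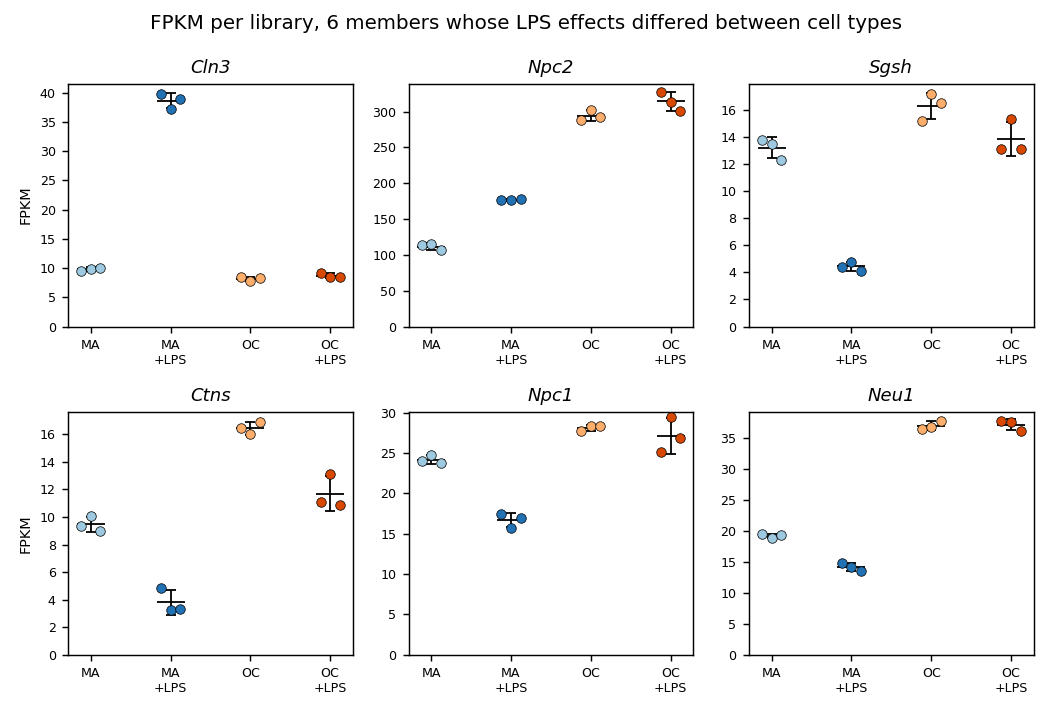
FPKM in each of the 12 libraries (points) for 6 genes whose LPS effects differed between the cell types, by group, with the group mean and ± 1 SD (lines); each panel starts at 0 and has its own scale. With LPS in macrophages Cln3 rises and Sgsh, Ctns, Npc1 and Neu1 fall, and Npc2 rises in the deposited scaling but under neither other scaling. In osteoclasts Ctns was called and the other 5 were not, though Sgsh passed under 8 of 22 alternatives.

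In osteoclasts LPS moved the set little. No member was called higher and 5 of 37 were called lower, where 11.1% of all genes tested were called higher and 6.59% lower. At an unadjusted p under 0.05 the counts were 3 higher and 9 lower, which were not taken over all genes tested. On recovered reads limma's voom called 0 higher and 6 lower (1467 and 943 of all genes tested). All 37 log2 differences lay between -0.46 and 0.15, with a median of -0.05 against 0.01 for all genes tested. Small changes were general, as 11062 of all 11335 genes tested changed by less than 1 on the log2 scale. Ctns fell furthest, from 16.4, 16 and 16.9 FPKM to 11.1, 13.1 and 10.8 FPKM (log2 difference -0.46, SE 0.11, adjusted p = 0.0129). Lipa fell from 199, 194 and 199 FPKM to 153, 147 and 146 FPKM (-0.41, SE 0.04, adjusted p = 1.20e-05). Both had all treated libraries below all untreated ones. Man2b1 went from 35.8, 37.9 and 36.5 FPKM to 31.3, 32.0 and 32.5 FPKM (-0.20, SE 0.03, adjusted p = 0.00136). Galc went from 3.93, 3.60 and 3.78 FPKM to 3.05, 3.02 and 3.36 FPKM (-0.20, SE 0.05, adjusted p = 0.00935). Lgmn was the last, at -0.13 (adjusted p = 0.0315). The highest value was that of Acp2, 0.15 (SE 0.06, adjusted p = 0.0951). Without replicate 2 of the LPS-treated osteoclasts 3 members were called higher and 10 lower (1295 and 736 of all genes tested). The counts were 0 and 9 on the scale of a constant sum and 0 and 13 after quantile normalization. All genes tested also shifted towards falls, from 1261 higher and 747 lower to 940 and 1221 and to 947 and 1514. Ctns, Lipa and Galc fell in both cell types, and Man2b1 rose in macrophages in the deposited scaling and fell in osteoclasts.

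The LPS effects of the 2 cell types differed for 14 of the 37 members. The interaction, which is the osteoclast effect of LPS less the macrophage effect, was above 0 for 4 and below 0 for 10, against 26.6% and 30.0% of all genes tested. Above 0 were Sgsh (1.16, SE 0.10, adjusted p = 1.16e-06), Ctns (0.67, SE 0.16, adjusted p = 0.00293), Npc1 (0.45, SE 0.08, adjusted p = 3.47e-04) and Neu1 (0.42, SE 0.06, adjusted p = 4.13e-05). All 4 had fallen in macrophages. In osteoclasts Sgsh went from 15.2, 17.2 and 16.5 FPKM to 13.1, 15.3 and 13.1 FPKM, a difference of -0.22 (adjusted p = 0.0531). It did not pass, but did under 8 of 22 alternatives, both other scalings among them (-0.30 in each). Npc1 measured 27.8, 28.4 and 28.4 FPKM without and 25.1, 29.4 and 26.8 FPKM with LPS there, and Neu1 36.4, 36.7 and 37.7 FPKM without and 37.6, 37.5 and 36.1 FPKM with LPS. For these 3 the treated and untreated osteoclast libraries overlapped. Furthest below 0 was Cln3 (-1.79, SE 0.07, adjusted p = 9.96e-10), which measured 8.47, 7.73 and 8.27 FPKM in untreated osteoclasts and 9.20, 8.50 and 8.44 FPKM after LPS. Next was Npc2 (-0.57, SE 0.06, adjusted p = 5.02e-06), with 288, 303 and 292 FPKM in untreated and 328, 313 and 301 FPKM in treated osteoclasts, which overlapped. Lamp2 (-0.45, SE 0.11, adjusted p = 0.00387) measured 15.96, 14.4 and 14.6 FPKM without and 16.9, 13.1 and 16.6 FPKM with LPS there, also with overlap. Man2b1 (-0.42, SE 0.05, adjusted p = 9.26e-06) had gone from 91.7, 91.2 and 91.0 FPKM to 109, 107 and 105 FPKM in macrophages, against the fall in osteoclasts given above, and Ids (-0.35) followed. Cln3 alone stayed below 0 with a call under both other scalings, and the same 4 stayed above 0. In all, the counts above and below 0 were 33 and 1 on the scale of a constant sum and 26 and 1 after quantile normalization, and the share above 0 among all genes called went from 47.0% to 82.0% and 59.9%.

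**Figure D4:**
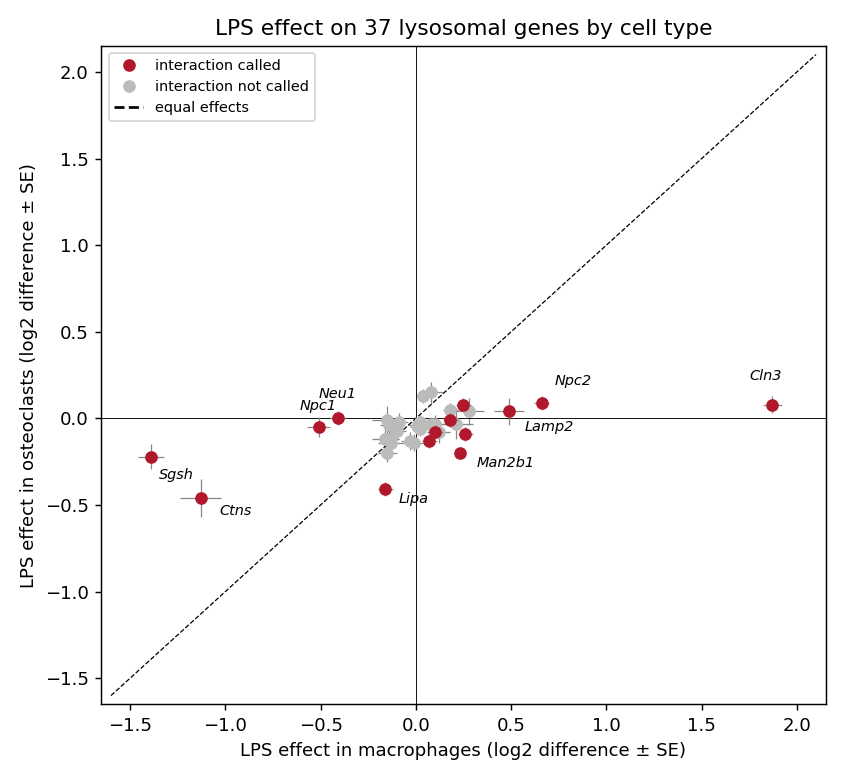
LPS effect in osteoclasts (vertical axis) against that in macrophages (horizontal axis) for the 37 genes, both as log2 difference on the log2(FPKM + 1) scale with bars for ± 1 SE; red points have a called interaction and the dashed line marks equal effects. The spread is from -1.39 to 1.87 in macrophages and from -0.46 to 0.15 in osteoclasts.

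Of Tfeb, Tfe3, Mitf and Tfec, the 4 transcription factors of the MiT/TFE family that drive lysosomal genes, 3 were called with LPS in macrophages in the deposited scaling. Tfeb measured 9.03, 9.14 and 8.27 FPKM in untreated macrophages and 0.898, 0.827 and 0.540 FPKM after LPS, an 11.7-fold fall (log2 difference -2.49, SE 0.09, adjusted p = 2.23e-10). In osteoclasts it measured 3.67, 3.95 and 3.43 FPKM without and 2.84, 3.33 and 2.51 FPKM with LPS (-0.27, SE 0.09, adjusted p = 0.0713). The 2 effects differed by 2.22 (SE 0.13, adjusted p = 4.38e-08). Mitf and Tfec went the other way in macrophages. Mitf rose from 12.2, 12.6 and 13.4 FPKM to 65.98, 63.7 and 64.1 FPKM (2.26, SE 0.07, adjusted p = 2.37e-11), and in osteoclasts from 10.1 ± 0.531 to 12.98 ± 1.33 FPKM (0.33, adjusted p = 0.00428). Tfec rose from 1.41, 1.23 and 1.32 FPKM to 21.8, 18.4 and 20.9 FPKM (3.20, SE 0.07, adjusted p = 2.78e-12), and in osteoclasts from 9.07 ± 0.467 to 14.3 ± 1.22 FPKM (0.60, adjusted p = 9.69e-05). No treated library of these 3 genes overlapped with an untreated one in macrophages. Tfe3 did not pass the test for LPS in either cell type in the deposited scaling (15.8 and 14.6 FPKM in macrophages, 5.71 and 5.24 FPKM in osteoclasts). Its LPS result is not given here for the scale of a constant sum, where the median of all genes tested was -0.55 in macrophages. Tfe3 was lower in untreated osteoclasts by -1.32 (SE 0.04, adjusted p = 3.81e-11). Of the other 3, Tfec was higher there (2.12), and Tfeb (-1.07) and Mitf (-0.31) lower.

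**Figure D5:**
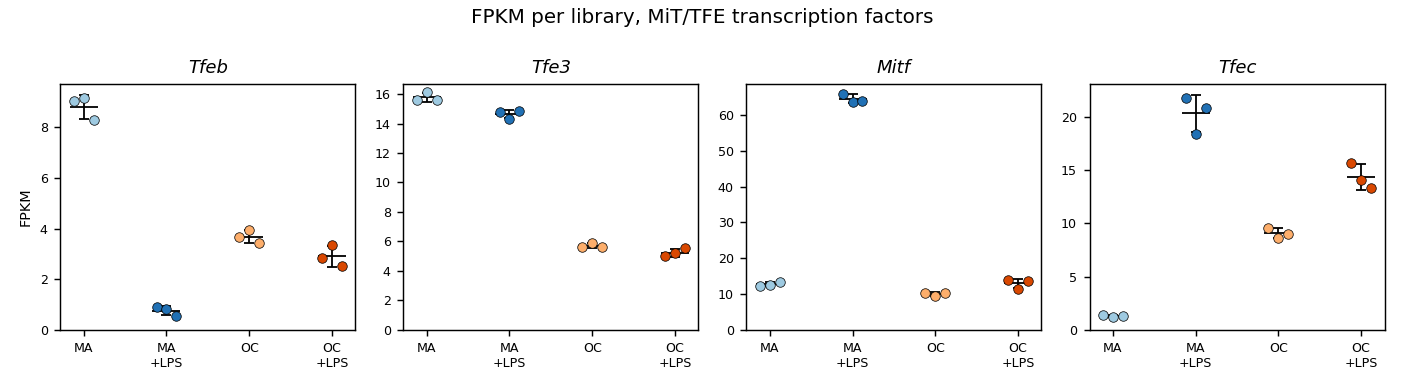
FPKM in each of the 12 libraries (points) for the 4 MiT/TFE transcription factors, by group, with the group mean and ± 1 SD (lines); each panel starts at 0 and has its own scale. With LPS, Tfeb falls and Mitf and Tfec rise in all 3 macrophage libraries, and the shifts in osteoclasts are smaller.

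The wider list of 18 regulators adds the mTOR complex, the Ragulator and Rag proteins that hold it on the lysosome, and the folliculin complex. With LPS 6 rose and 10 fell in macrophages (2 and 15 on the scale of a constant sum). In osteoclasts 2 rose and 5 fell (2 and 6 on that scale). Over all 11335 genes tested, 36.8% rose and 33.1% fell in macrophages (1797 and 7933 genes on that scale). In osteoclasts 11.1% rose and 6.59% fell (940 and 1221 genes on that scale). Flcn, the folliculin that acts on the Rag proteins, fell from 8.95, 9.22 and 8.73 FPKM to 1.98, 1.15 and 1.30 FPKM in macrophages (-2.02, SE 0.10, adjusted p = 2.34e-09). In osteoclasts it fell from 13.3 ± 0.581 to 9.79 ± 0.557 FPKM (-0.40, adjusted p = 0.0148), and the interaction was 1.62 (adjusted p = 1.01e-06). Its partner Fnip2 fell by 1.45 in macrophages and by 0.42 in osteoclasts, both called. Between the untreated cell types 9 regulators were higher in osteoclasts and 7 lower, and 4 and 11 on the scale of a constant sum, against 38.8% and 39.0% of all genes tested (2760 and 6457 genes on the scale of a constant sum).

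Of 13 genes for mannose 6-phosphate tagging and sorting, 9 were higher and 3 lower in untreated osteoclasts, where 38.8% and 39.0% of all genes tested were, but 5 and 6 on the scale of a constant sum. Gnptab, which encodes the 2 catalytic chains of the enzyme that starts the tag, measured 26.3, 26.1 and 27.0 FPKM in untreated macrophages and 187, 189 and 193 FPKM in untreated osteoclasts (7.16-fold, log2 difference 2.79, SE 0.05, adjusted p = 2.96e-13). Its groups did not overlap with or without LPS. Of the receptors, Sort1, or sortilin, an alternative carrier of prosaposin and acid sphingomyelinase, went the other way, with 9.80, 9.55 and 9.34 FPKM in macrophages and 0.523, 0.766 and 0.560 FPKM in osteoclasts (-2.71, SE 0.08, adjusted p = 1.64e-11). Igf2r and M6pr, the 2 mannose 6-phosphate receptors, named after their values were seen, were higher in untreated osteoclasts by 2.72 and 0.94. With LPS 5 of the 13 rose and 3 fell in macrophages (1 and 11 on the scale of a constant sum). In osteoclasts 1 rose and 1 fell (0 and 4 on that scale). Among all genes tested 36.8% rose and 33.1% fell in macrophages (1797 and 7933 genes on that scale). For osteoclasts these were 11.1% and 6.59% (940 and 1221 genes on that scale).

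Of 15 other lysosomal enzymes, 9 were higher and 6 lower in untreated osteoclasts, against 38.8% and 39.0% of all genes tested. Hyal1, a hyaluronidase, measured 1.87, 2.25 and 1.72 FPKM in macrophages and 22.4, 25.3 and 24.6 FPKM in osteoclasts (12.4-fold, log2 difference 3.09, SE 0.08, adjusted p = 7.36e-12). With LPS the difference was 4.16, the largest of all listed pathway genes. Pla2g15, a lysosomal phospholipase, was lower in untreated osteoclasts by a log2 difference of -1.95. Hyal1 shares exons with Hyal3 and Naa80 on its own strand, so its reads are uncertain. With LPS 6 of the 15 rose and 5 fell in macrophages (4 and 10 on the scale of a constant sum), against 36.8% and 33.1% of all genes tested. Among 19 other membrane proteins 8 were higher and 9 lower in untreated osteoclasts (5 and 11 on the scale of a constant sum), beside the same 38.8% and 39.0%. Clcn7, the chloride and proton exchanger of the lysosome and the ruffled border, measured 20.3, 18.8 and 18.9 FPKM in macrophages and 236, 258 and 250 FPKM in osteoclasts (12.8-fold, log2 difference 3.61, SE 0.07, adjusted p = 5.39e-13). With LPS 7 of the 19 rose and 8 fell in macrophages (1 and 16 on the scale of a constant sum). In osteoclasts 0 rose and 3 fell (0 and 6 on that scale). There 11.1% of all genes tested rose and 6.59% fell (940 and 1221 genes on that scale). The named genes of these 4 lists kept their direction in the comparisons given under both other scalings.

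Exon sharing limits some of the values. Of the 37 members, 12 share exon bases with another annotated gene, 11 of them with a gene on the opposite strand. Besides Cln3, Sgsh shares 955 of 4414 bases (21.6%) with Card14, which had 0.189 and 0.0692 FPKM in macrophages without and with LPS and 14.03 and 10.8 FPKM in osteoclasts. Npc1 shares 511 of 11317 bases (4.52%) with Rmc1, which had 6.65 and 3.92 FPKM in macrophages without and with LPS and 10.8 and 11.2 FPKM in osteoclasts. Arsb shares 1948 of 6037 bases (32.3%) with Gm26527, which was at 0 in every library. Those bases are 100.0% of the exon bases of Gm26527. If counting ignored strand, no read could be assigned to Gm26527 alone, so its 0 does not show that it was silent. Arsb also shares 463 bases with Gm47210, which had at most 0.386 FPKM as a group mean. Lamp1 shares 249 bases with Grtp1, at most 0.466 FPKM. Glb1 shares 165 bases with Tmppe on its own strand, which had 7.50 FPKM in untreated macrophages and 14.8 FPKM in untreated osteoclasts. Ppt1 shares 129 of 3674 bases (3.51%) with Cap1, which had 357 and 236 FPKM in the same groups. The part of these partners in the member values was not tested.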

How the data were processed

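Total RNA of 12 samples was made into libraries with the NEBNext Ultra RNA kit, per the labels' protocols. The submitters' processing notes name fastp, STAR, featureCounts and DESeq2 and the build mm10, with no versions or roles. The authors deposited FPKM values for 54532 genes, and no raw counts are used as deposited. Those values were whole reads divided by exon length and by a library factor: whole reads came out for 25854 of 25854 genes above 0 (100.0%, within 0.02 reads), 25015 of them (96.8%) at the exon length of GENCODE M21 on GRCm38. The library factors equalled median-of-ratios size factors, which is inferred from the values.

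Differences were tested with limma (version 3.58.1, under R 4.3.3) on log2(FPKM + 1). All 12 libraries entered 1 fit of 4 group means with moderated variances that follow the mean level, and 5 contrasts were taken from it. Genes at 1 FPKM or more in at least 3 libraries were tested, 11335 in all, with Benjamini-Hochberg adjustment over all of them and calls at an adjusted p under 0.05 (two-sided). The scale understates changes of genes with low values. Fold values are ratios of mean FPKM. The FPKM sums per library ran from 255852 to 408994. The procedure was tested on simulated data.

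Full statistics are given for the 4 highest and 4 lowest called members of each contrast, and other members are named by role, level or because they did not pass. Of the pathway lists, the 2 highest and 2 lowest called genes per contrast and the MiT/TFE factors are named. Results for some listed genes are not reported here. The members and lists were chosen with earlier results of these data known. Alternatives changed the pseudocount (0.1), the filter (none, or a mean of at least 5 FPKM), the scaling (TPM, quantile), the samples fitted, the replicate block, the variance trend, library weights, the use of recovered reads (voom) and each library in turn. Promoters are from RefSeq on GRCm38.p6.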

Additional observations from a re-analysis of the deposited data

Results flagged for a closer look

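By limma's interaction test (osteoclasts minus macrophages, log2 scale), 14 of the 37 genes had unlike LPS effects in the 2 cell types. It was above 0 for Sgsh (1.16), Ctns (0.67), Npc1 (0.45) and Neu1 (0.42), which fell in macrophages, and these 4 stayed above 0 and called under both other scalings. Cln3 was furthest below 0 (-1.79) and stayed below 0 and called under both. Npc2 (-0.57), Lamp2 (-0.45), Man2b1 (-0.42), Ids (-0.35), Lipa (-0.25), Lgmn (-0.20), Asah1 (-0.18), Tpp1 (-0.18) and Cd63 (-0.17) were also below 0 in the deposited scaling. All 9 turned to 0.00 or above on the scale of a constant sum, and all but Ids also after quantile normalization.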

How the results depend on the processing

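The counts for both comparisons of the cell types stayed within 1.5 times under the 22 alternatives, and those for LPS changed with the scaling. On the scale of a constant sum (TPM) and after quantile normalization, LPS in macrophages called 1 and 1 members higher, in place of 11, and 34 and 32 lower, in place of 8. LPS in osteoclasts called 9 and 13 lower in place of 5, and 3 when only the groups compared were fitted. Over all genes tested it called 1221 and 1514 lower in place of 747, and 463 with only the groups compared. The interaction was above 0 for 33 and 26 members in place of 4, and below 0 for 1 and 1 in place of 10. The median log2 difference of all genes tested went from 0.02 to -0.55 and -0.14 for LPS in macrophages, and that of the members from 0.02 to -0.60 and -0.50. For the interaction the median of all genes went from -0.01 to 0.51 and 0.09.

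Directions of called members turned only under these 2 scalings. For LPS in macrophages the values with a constant sum and with quantile normalization were -0.41 and -0.08 for Arsb, -0.47 and -0.70 for Asah1, -0.39 and -0.53 for Cd63, -0.47 and -0.65 for Hexa, -0.37 and -0.15 for Ids, -0.37 and -0.71 for Lamp1, -0.15 and -0.21 for Lamp2, -0.42 and -0.60 for Man2b1 and -0.54 and -0.54 for Tpp1. Npc2 had -0.26 with quantile normalization. Between the untreated cell types Npc1 had -0.20, Sgsh -0.11 and Psap -0.13 with a constant sum, and Psap -0.44 with quantile normalization. Between the treated ones Galns had 0.08 with quantile normalization. For the interaction the pairs were 0.39 and 0.60 for Asah1, 0.40 and 0.51 for Cd63, 0.12 and 0.18 for Lamp2, 0.38 and 0.72 for Lgmn, 0.33 and 0.55 for Lipa, 0.15 and 0.33 for Man2b1, 0.00 and 0.24 for Npc2 and 0.39 and 0.34 for Tpp1. Ids had 0.21 with a constant sum.

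Leaving out 1 library at a time gave 9 to 12 members higher and 7 to 10 lower for LPS in macrophages, and 0 to 3 higher and 4 to 10 lower for LPS in osteoclasts. The cell types gave 22 to 22 higher and 13 to 13 lower without LPS and 22 to 23 higher and 14 to 14 lower with LPS. The interaction gave 4 to 5 above 0 and 9 to 12 below. The 3 and 10 of LPS in osteoclasts came without replicate 2 of the LPS-treated osteoclasts, beside 1295 and 736 of all genes tested. Of the called values, those nearest the threshold lost their call most often: Tpp1 for LPS in macrophages under 15 alternatives, Arsb under 11 and Lgmn for LPS in osteoclasts under 8.

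Whether replicate numbers pair the libraries cannot be settled from the values. Deviations from the group mean correlated between -0.07 and 0.104 in 18 same-numbered pairs and between -0.137 and 0.11 in 36 others. Untreated and treated libraries of the same number had 0.104, 0.097 and -0.053 in macrophages and 0.072, 0.083 and 0.029 in osteoclasts. Those of unlike number lay between -0.137 and 0.048 and between -0.102 and 0.041. Such weak correlations do not exclude shared mice or cultures. With the replicate number as a block, the calls higher and lower were 10 and 9 for LPS in macrophages, 1 and 6 in osteoclasts, 22 and 13 and 22 and 14 between the cell types, and 4 and 10 for the interaction. Library weights also called 1 member higher with LPS in osteoclasts. Every member had at least 158 reads in every library, and with 3 libraries a group small changes can be missed.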
